A study of Mus musculus with 12 samples.

Results

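Transcripts of the Notch pathway were examined in aortic smooth muscle cells (SMCs) with and without TGF-β receptors. The 10 genes described are the receptors *Notch1*, *Notch2*, *Notch3*, and *Notch4*, the ligands *Jag1* and *Jag2*, and the transcription factor genes *Hey1*, *Hey2*, *Heyl*, and *Hes1*. They were taken by symbol from the 52636 genes of the count table, whatever their values. Bulk RNA-seq was done on 3 GFPiSMC and 3 Tgfbr1/2iSMCKO mice. The ascending aorta with the arch and the descending thoracic aorta were sequenced apart, and libraries of the same genotype and number were read as 1 mouse, giving 12 libraries in 4 groups of 3. All were C57BL/6J males aged 12 weeks carrying *Myh11*-CreERT2, a tamoxifen-inducible Cre driven by the smooth muscle myosin heavy chain promoter from the Y chromosome, and the mT/mG reporter, which turns recombined cells from red to green fluorescence. Tgfbr1/2iSMCKO mice also had floxed *Tgfbr1* and *Tgfbr2*, whereas GFPiSMC mice had no floxed allele, so mouse line and deletion cannot be told apart. All mice received tamoxifen for 5 days, by the methods at 2 mg/d from 11 weeks of age, so that cells were taken about 1 week later. The labels also name 1 mg/d from 4 weeks of age, which the methods give as the schedule of a subgroup. Between 9208 and 20000 viable single GFP+ cells were sorted per library after cold enzymatic digestion.

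Notch receptors are cut when a Jagged or Delta-like ligand on a neighboring cell pulls on them. The released intracellular domain joins the DNA-binding protein RBPJ and Mastermind coactivators in the nucleus and turns on genes such as the Hey and Hes repressors. In arteries, Jagged1 and Notch3 are known for their part in smooth muscle differentiation, and loss of Jagged1 or mutation of Notch receptors underlies inherited vascular disease.

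The promoter of *Hey2* is shown because it was the 1 window, among the 7 members with a RefSeq window, that held GTGGGAA, a motif that RBPJ is known to bind, searched on both strands. No RefSeq window was found for *Hey1*, *Heyl*, and *Hes1*, so their promoters were not searched and *Hey2* was the only Hey or Hes member searched. The first of 2 RefSeq windows of *Rbpj* is shown because *Rbpj* rose in Tgfbr1/2iSMCKO SMCs, and it holds the shorter core TGGGAA. Each run is 270 bases, 250 before the RefSeq start of GRCm38.p6 and 20 after it, read 5′ to 3′ on the strand of the gene, with matches of either strand in capitals. *Hey2* lies on the minus strand at chr10:30842764-30843033 and *Rbpj* on the plus strand at chr5:53590096-53590365.
Hey2: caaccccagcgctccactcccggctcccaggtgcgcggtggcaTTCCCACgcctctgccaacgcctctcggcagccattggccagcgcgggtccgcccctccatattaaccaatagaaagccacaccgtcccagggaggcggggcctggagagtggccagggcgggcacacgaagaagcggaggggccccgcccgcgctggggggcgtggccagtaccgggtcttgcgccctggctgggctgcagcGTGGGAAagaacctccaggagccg
Rbpj: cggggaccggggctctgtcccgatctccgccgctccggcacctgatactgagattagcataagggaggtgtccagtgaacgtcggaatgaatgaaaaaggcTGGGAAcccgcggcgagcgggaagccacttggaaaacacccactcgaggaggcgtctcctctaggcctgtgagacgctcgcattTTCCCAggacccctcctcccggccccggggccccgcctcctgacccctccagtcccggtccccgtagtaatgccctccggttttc
In *Hey2*, 1 match began 207 bases before the start on the opposite strand and the other began 4 bases before it on the strand of the gene. In the window of *Rbpj* shown, the matches to TGGGAA began 149 and 65 bases before its start. The other window, chr5:53590236-53590505, overlaps it and held 1 match, 205 bases before its own start. The GENCODE gene begins further upstream, at 53466152, so these windows need not cover every start of *Rbpj*. Of 32851 mouse promoter windows of this length, 6.38% held GTGGGAA and 25.6% held TGGGAA, so such matches are common and are no evidence of binding.

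The 12 libraries held 20467027 to 31392396 counts, with a median of 27351101. The 9 smooth muscle markers, among them *Myh11*, *Acta2*, and *Tagln*, summed to 36410 to 49720 CPM (the usual depth-scaled count, here with TMM factors). Endothelial markers summed to 85.3 to 168 CPM and fibroblast markers to 14.1 to 219 CPM. Markers of macrophages, adipocytes, and Schwann cells summed to at most 18.4, 1.36, and 4.86 CPM. *Tgfbr1* (0.10 on the log2 scale, SE 0.12, adjusted p = 0.790) and *Tgfbr2* (−0.26, SE 0.11, adjusted p = 0.234, edgeR quasi-likelihood test) were not called between genotypes, and counts of whole genes do not show whether the floxed exons were lost. All 10 members passed the filter on low counts.

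The 10 genes differed widely in level. *Heyl*, *Jag1*, and *Hey2* had the highest levels per length, at 15.4, 14.5, and 13.7 CPM per kilobase of merged exons (RPKM, mean of 12 libraries). *Notch2* followed at 8.53 RPKM, then *Hes1* at 3.94, *Hey1* at 3.19, and *Notch3* at 2.67 RPKM, then *Notch1* at 0.579 RPKM, and last *Jag2* and *Notch4* at 0.150 and 0.143 RPKM. *Hey2* exceeded *Notch2* in 12 of 12 libraries and *Notch2* exceeded *Hes1* in 11 of 12. *Notch3* exceeded *Notch1*, and *Notch1* exceeded *Jag2*, in all 12 libraries without overlap of their ranges. Neighbors of like level did not keep 1 order, since *Heyl* exceeded *Jag1* in 8 of 12 libraries, *Jag1* exceeded *Hey2* in 7, *Hes1* exceeded *Hey1* in 5, *Hey1* exceeded *Notch3* in 7, and *Jag2* exceeded *Notch4* in 5.

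**Figure D1:**
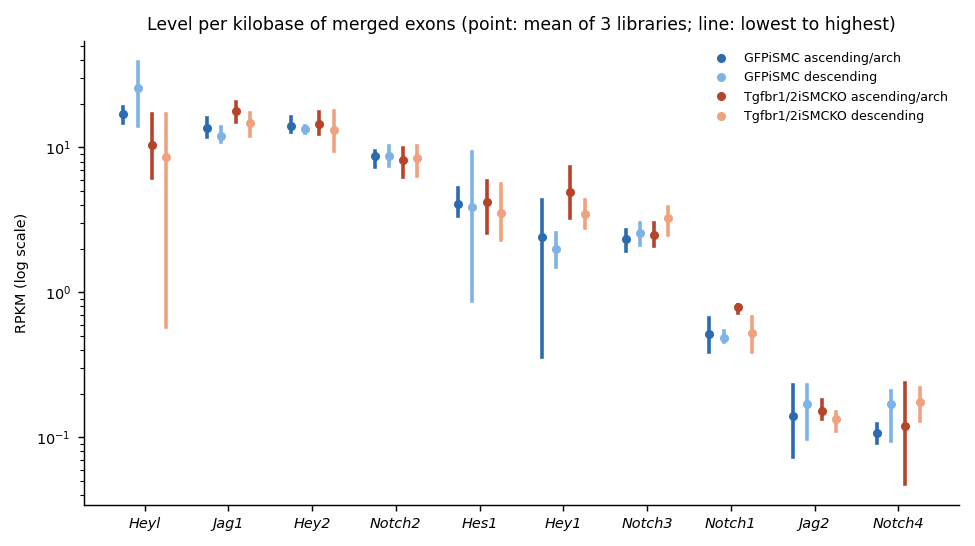
Level of each gene per kilobase of merged exons (RPKM, log axis) in the 4 groups of genotype and aortic segment, ordered by the mean over 12 libraries. Points are means of 3 libraries and lines run from the lowest to the highest library. The long lines of *Heyl*, *Hey1*, and *Hes1* stand beside short lines for *Jag1*, *Hey2*, and *Notch2*.

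Within the receptors, *Notch2* made up 58.6% to 77.8% of the summed RPKM of the 4 genes (median 71.3%), *Notch3* 15.9% to 35.6%, *Notch1* 2.91% to 8.55%, and *Notch4* at most 1.90%. *Jag1* made up 98.0% to 99.5% of the RPKM of the Jagged pair. *Notch2* was the most abundant receptor transcript and *Jag1* the more abundant Jagged transcript in each library. No such dominance held for the repressor genes, among which *Heyl* ranged from 2.46% to 70.0% and *Hey2* from 23.9% to 75.9% of their summed RPKM.

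The first comparison asked whether these transcripts differed between Tgfbr1/2iSMCKO and GFPiSMC SMCs over both segments, 6 libraries against 6. None of the 10 genes passed an adjusted p of 0.05, against 5.03% of the 22320 genes tested (edgeR quasi-likelihood test, segment as covariate, Benjamini-Hochberg adjustment over all genes tested). One member, *Jag1*, had an unadjusted p under 0.05, against 16.1% of all genes, and no member had genotype groups that did not overlap, against 4.39%. DESeq2 and limma-voom also called 0 of 10, with 3 unadjusted p-values under 0.05 in each. The 16.1% is that of the edgeR fit, and the share of all genes in those other fits is not given here. Over the alternative settings, 0 to 3 members had such a p. In the main edgeR fit *Hey1* (unadjusted p = 0.0502) and *Heyl* (0.0572) stood just above 0.05. Fold changes were positive for 6 genes and negative for 4, with a median of 0.06 on the log2 scale against 0.04 over all genes tested.

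**Figure D2:**
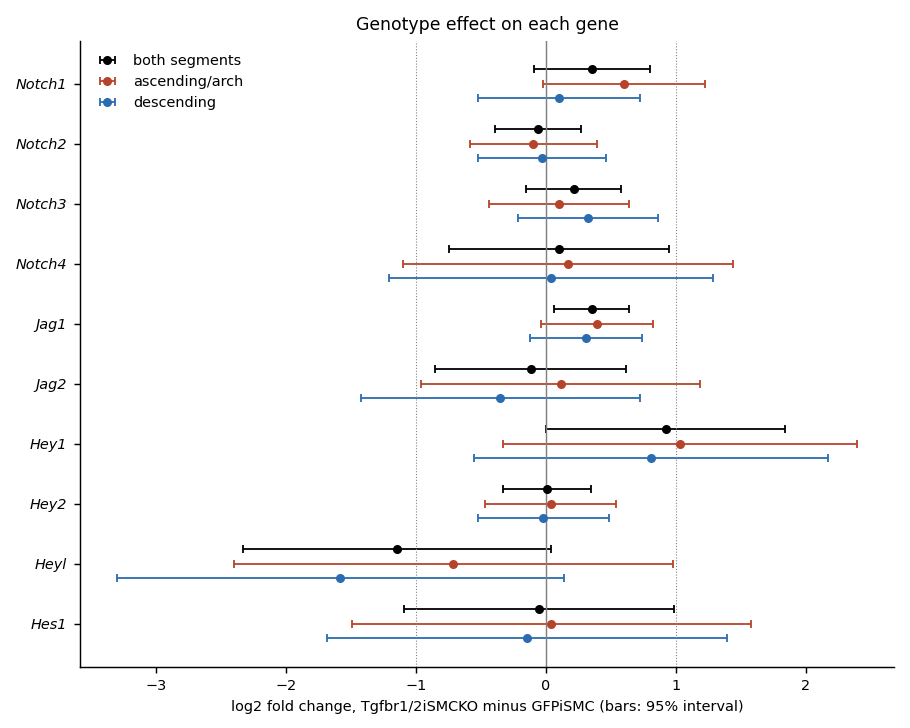
Log2 fold change of each gene, Tgfbr1/2iSMCKO minus GFPiSMC, over both segments (black), in the ascending/arch segment (red), and in the descending segment (blue), with 95% intervals as bars. Dotted lines mark a 2-fold change. The interval of *Jag1* over both segments, 0.06 to 0.64, is the only one of the 30 that leaves out 0, and those of *Notch2* and *Hey2* stay well within a 2-fold change.

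All 4 receptors had 95% intervals inside a 2-fold change over both segments. *Notch2* was at 93.9 ± 12.9 CPM (SD, n = 6 libraries from 3 mice) in GFPiSMC and 90.0 ± 18.4 in Tgfbr1/2iSMCKO SMCs, a fold of 0.958 (95% interval 0.762 to 1.20, adjusted p = 0.919 by edgeR). *Notch3*, the receptor best known from smooth muscle, was at 19.9 ± 3.17 and 23.2 ± 5.38 CPM (log2 fold change 0.21, −0.16 to 0.58, adjusted p = 0.654). *Notch4*, a receptor known chiefly from endothelium, had 12 to 56 counts per library, and its interval ran from 0.597- to 1.93-fold.

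*Notch1*, a receptor of endothelium and many other cell types, was at 5.50, 9.54, and 7.15 CPM in GFPiSMC ascending/arch libraries and at 11.7, 10.3, and 11.7 CPM in Tgfbr1/2iSMCKO ascending/arch libraries (mice 1 to 3). In the descending segment it was at 6.60, 6.45, and 7.71 CPM in GFPiSMC and at 9.65, 5.53, and 7.08 CPM in Tgfbr1/2iSMCKO SMCs. The 3 Tgfbr1/2iSMCKO ascending/arch libraries stood above the other groups, while the descending libraries of both genotypes overlapped. The genotype effect was 0.35 over both segments (log2 units, SE 0.21, adjusted p = 0.475) and 0.60 in the ascending/arch (SE 0.29, adjusted p = 0.462, edgeR).

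Of the ligands, *Jag1* had the smallest unadjusted p of the 10 genes and *Jag2* had few counts. *Jag1* was at 93.2, 69.2, and 74.4 CPM in GFPiSMC ascending/arch and at 80.4, 65.5, and 63.5 CPM in GFPiSMC descending libraries. In Tgfbr1/2iSMCKO SMCs it was at 104, 120, and 87.1 CPM in the ascending/arch and at 88.0, 101, and 70.1 CPM in the descending segment. The genotypes overlapped in each segment, with mouse 1 highest in GFPiSMC and mouse 2 highest in Tgfbr1/2iSMCKO SMCs. Over both segments the difference was 0.35 on the log2 scale (SE 0.13), a fold of 1.28 (95% interval 1.05 to 1.56), with an unadjusted p of 0.0205 and an adjusted p of 0.187 by edgeR, ranging from 0.0589 to 0.511 over 17 alternative settings. *Jag2*, with 14 to 47 counts per library, was at 1.09 ± 0.479 and 1.00 ± 0.157 CPM (fold 0.922, 0.553 to 1.54).

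**Figure D3:**
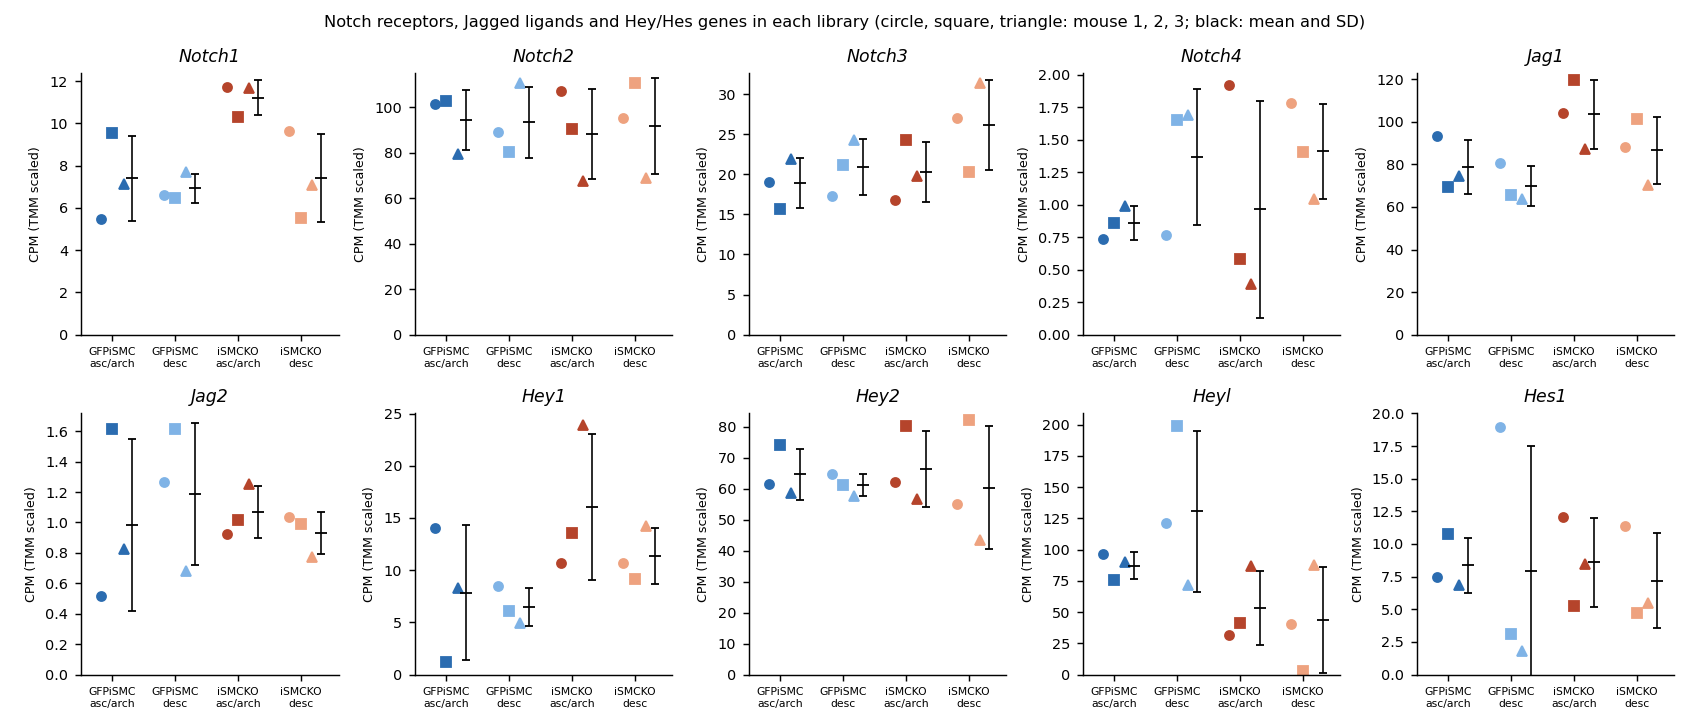
CPM of the 10 genes in each library, by genotype and segment, from 0 on linear axes. Circles, squares, and triangles are mice 1, 2, and 3 of a genotype, and black bars are the mean and SD of 3 libraries, cut at 0 in the panel of *Hes1*. *Hey2* lies between 43.5 and 82.3 CPM, whereas *Heyl* runs from 2.97 to 199 CPM.

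The repressor genes split by how much they varied between libraries. *Hey2*, which encodes a repressor that restrains contractile genes, was at 62.9 ± 5.94 CPM in GFPiSMC and 63.3 ± 15.1 in Tgfbr1/2iSMCKO SMCs (n = 6 libraries from 3 mice each), a fold of 1.01 (0.796 to 1.27, adjusted p = 0.991 by edgeR). Its biological coefficient of variation (BCV, the spread between libraries of a group beyond counting error) was 0.226, below the median of 0.295 over the 12695 tested genes that averaged 50 counts or more. That of *Notch2* was 0.220 and that of *Jag1* 0.201. *Hey1*, *Hes1*, and *Heyl* had BCVs of 0.518, 0.578, and 0.636, above 91.2%, 94.6%, and 96.4% of those genes.

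*Heyl*, a Hey repressor gene known from vascular smooth muscle, had the largest fitted change and also the largest spread of the 10 genes. It was at 96.6, 75.2, and 89.8 CPM in GFPiSMC ascending/arch and at 121, 199, and 71.4 CPM in GFPiSMC descending libraries. In Tgfbr1/2iSMCKO SMCs it was at 31.5, 41.0, and 87.1 CPM in the ascending/arch and at 40.6, 2.97, and 87.3 CPM in the descending segment. Mice 1 and 2 of Tgfbr1/2iSMCKO lay below each GFPiSMC library, mouse 3 lay within their range in both segments, and the descending libraries of this genotype differed 29.4-fold among themselves (72 to 2588 counts). The log2 fold change over both segments was −1.15 (SE 0.55, 95% interval −2.33 to 0.04, unadjusted p = 0.0572, adjusted p = 0.334 by edgeR). Leaving out mouse 3 of Tgfbr1/2iSMCKO gave −1.91 (adjusted p = 0.111) and leaving out mouse 2 gave −0.79 (adjusted p = 0.271).

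*Heyl* also varied with the base composition of the libraries. GC-rich genes were over- or under-represented from library to library, with a tilt (median log2 deviation of the GC-richest minus the GC-poorest quintile of genes) of −0.52 to 0.50. Within Tgfbr1/2iSMCKO, the lowest *Heyl* value was in the library with a tilt of −0.52, and the highest were in the libraries with tilts of 0.50 and 0.47. In GFPiSMC SMCs, the highest *Heyl* value stood at the highest tilt of that genotype, 0.44. With an offset for GC content in each library, chosen after the tilt was seen, the log2 fold change of *Heyl* was −1.29 (SE 0.46, adjusted p = 0.133). *Notch2* ran the other way, with its lowest values, 67.6 and 68.9 CPM, at the tilts of 0.50 and 0.47. Pearson's r of log2 CPM with the tilt was 0.615 for *Heyl*, −0.811 for *Notch2*, −0.666 for *Hey2*, and 0.526 for *Hey1*, as a description of 12 libraries from 6 mice. The tilt was also lower in libraries of more sorted cells (Spearman's rho −0.838), so the tilt and the number of cells cannot be told apart. With that number, rho was −0.739 for *Heyl* and 0.697 for *Notch2*, and the part of either feature in the values was not tested further. The annotated transcripts of *Heyl* and *Notch2* are 55.4% and 54.5% G or C (mean weighted by length), and those of *Hey2* 42.2%.

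**Figure D4:**
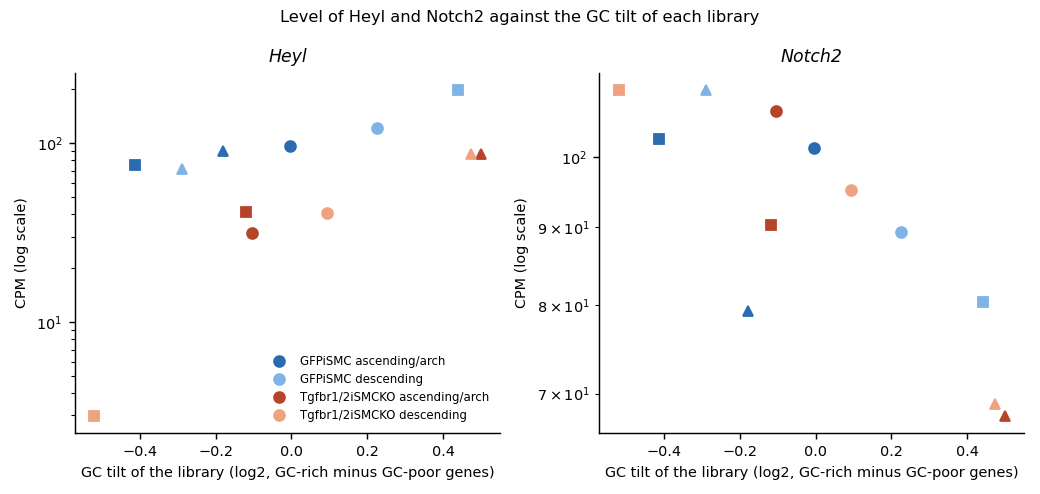
CPM of *Heyl* (left) and *Notch2* (right), on log axes, against the GC tilt of each library in log2 units, with colors for the 4 groups and circles, squares, and triangles for mice 1, 2, and 3. *Heyl* is lowest (2.97 CPM) in the library with the lowest tilt, −0.52, and *Notch2* is lowest (67.6 CPM) in the library with the highest, 0.50.

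*Hey1*, the Hey gene known from arterial endothelium and smooth muscle, was at 14.1, 1.17, and 8.26 CPM in GFPiSMC ascending/arch and at 8.44, 6.10, and 4.90 CPM in GFPiSMC descending libraries. In Tgfbr1/2iSMCKO SMCs it was at 10.6, 13.5, and 23.9 CPM in the ascending/arch and at 10.6, 9.11, and 14.3 CPM in the descending segment. Each Tgfbr1/2iSMCKO descending library stood above the GFPiSMC descending libraries, and in the ascending/arch the low value of 1.17 CPM (34 counts) of GFPiSMC mouse 2 lay below the other 11 libraries. The log2 fold change over both segments was 0.92 (SE 0.43, 95% interval −0.0007 to 1.84, unadjusted p = 0.0502, adjusted p = 0.311 by edgeR). It was 0.64 without GFPiSMC mouse 2, 1.40 without GFPiSMC mouse 1, and 0.61 without Tgfbr1/2iSMCKO mouse 3.

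*Hes1*, a repressor gene that other signals besides Notch are known to induce, was at 7.44, 10.8, and 6.86 CPM in GFPiSMC ascending/arch and at 19.0, 3.12, and 1.77 CPM in GFPiSMC descending libraries. In Tgfbr1/2iSMCKO SMCs it was at 12.1, 5.24, and 8.51 CPM in the ascending/arch and at 11.4, 4.70, and 5.50 CPM in the descending segment. All groups overlapped, and the GFPiSMC descending libraries alone spanned 10.7-fold. The interval of the genotype effect, −1.09 to 0.98 on the log2 scale, therefore includes changes of about 2-fold in either direction. Immediate early genes, which rise during cell isolation, summed to 405 to 1513 CPM in GFPiSMC and 318 to 1050 CPM in Tgfbr1/2iSMCKO libraries. Between genotypes 0 of 10 were called by edgeR, against 5.03% of all genes, and 4 had an unadjusted p under 0.05, against 16.1%. Their fold changes were negative for 8 and positive for 2, with a median of −0.67 on the log2 scale. The part of these genes in *Hes1* was not tested.

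Taken by segment, the genotype effect again called none of the 10 genes by edgeR, against 1.41% of all genes in the ascending/arch and 1.72% in the descending segment. No unadjusted p of a member was under 0.05 in either segment, and DESeq2 gave 0 calls and 1 such p in each. The share of all genes with such a p is not given here by segment. *Notch1* in the ascending/arch was the 1 member whose 3 Tgfbr1/2iSMCKO libraries all stood above the GFPiSMC libraries, as 8.87% of all genes did there. *Hey1* was the 1 such member in the descending segment, as 7.19% of all genes were. No member lay wholly below in either segment, against 10.1% of all genes in the ascending/arch and 7.75% in the descending segment. The test of the difference between the segments' genotype effects called no member and 0% of the 22320 genes (2.95% with an unadjusted p under 0.05, no member among them, and DESeq2 0 of 10). *Heyl* had the largest such difference, −0.87 (SE 1.10), and *Notch1* one of −0.50 (SE 0.41), so the segments were not told apart for either gene.

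The second comparison asked whether the descending segment differed from the ascending/arch, which differ in embryonic origin of their SMCs. No member was called over both genotypes, against 0.797% of all genes (edgeR, 0 members with an unadjusted p under 0.05, and DESeq2 0 of 10), and none had segments that did not overlap, against 0.811%. The largest positive value was that of *Notch4*, 0.60 on the log2 scale (SE 0.39), and the largest negative values were those of *Hey1*, −0.39 (SE 0.42), and *Notch1*, −0.35 (SE 0.21), each with an adjusted p of 0.999. *Notch2* (fold 1.01, 0.806 to 1.27), *Hey2* (0.927, 0.734 to 1.17), and *Jag1* (0.860, 0.704 to 1.05) had the narrowest intervals.

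Within a genotype, the segments gave 0 calls among the members in GFPiSMC, against 0.376% of all genes, and 0 in Tgfbr1/2iSMCKO SMCs, against 0.112% (edgeR, with no unadjusted p under 0.05 in either). DESeq2 also gave 0 calls in each. No member in GFPiSMC had segments that did not overlap, against 13% of all genes. *Notch1* in Tgfbr1/2iSMCKO was the 1 member whose descending libraries (5.53 to 9.65 CPM) all lay below the ascending/arch libraries (10.3 to 11.7 CPM), as 4.08% of all genes did, and no member lay wholly above, against 3.15%. The segment effect on *Notch1* was −0.60 (SE 0.29, adjusted p = 1.00) in log2 units there and −0.10 (SE 0.29) in GFPiSMC SMCs.

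Other genes of the pathway or linked to it, 67 in 10 lists by role, were read in the same fit, which tested 62 of them. For short they are called pathway genes, although the lists include relatives of the Hes genes and extracellular proteins reported to bind Notch receptors or ligands. Between genotypes 3 were called higher, against 1.80% of all genes, and 1 lower, against 3.23% (edgeR, adjusted p under 0.05). The higher genes were *Rbpj*, *Aph1c*, and *Bhlhe41*, and the lower gene was *Mfap5*. Of these, *Bhlhe41* came from the list of Hes relatives and *Mfap5* from that of extracellular proteins. Fold changes were positive for 34 genes and negative for 28, with a median of 0.09 on the log2 scale.

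*Rbpj*, the DNA-binding partner of cleaved Notch and a repressor in its absence, was at 106, 106, and 96.2 CPM in GFPiSMC ascending/arch and at 102, 95.5, and 61.6 CPM in GFPiSMC descending libraries. In Tgfbr1/2iSMCKO SMCs it was at 158, 149, and 151 CPM in the ascending/arch and at 150, 150, and 174 CPM in the descending segment. All 6 Tgfbr1/2iSMCKO libraries stood above all 6 GFPiSMC libraries, as 1.51% of all genes did. The log2 fold change was 0.72 (SE 0.13, 95% interval 0.45 to 1.00), a 1.65-fold rise with an adjusted p of 0.00404 by edgeR. It passed in 16 of 17 alternative settings (0.61 to 0.85), and in the fit of counts summed per animal the adjusted p was 0.0568. By segment it was 0.57 (SE 0.18, adjusted p = 0.194) in the ascending/arch and 0.87 (SE 0.18, adjusted p = 0.0306) in the descending segment, and the difference between them was 0.30 (SE 0.25, unadjusted p = 0.263). The BCV of *Rbpj* was 0.195. Its processed pseudogene *Rbpj-ps3* had 2 to 14 counts per library, and overlapping antisense genes had at most 19.

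*Aph1c*, which encodes a γ-secretase subunit, rose from 3.51 to 7.80 CPM, a log2 difference of 1.14 (SE 0.21, adjusted p = 0.00587 by edgeR). Its near-identical paralog *Aph1b* was at 31.7 and 28.4 CPM (−0.15, SE 0.15, adjusted p = 0.732). Reads of the pair may be split between them in counting, so the change of *Aph1c* alone is uncertain. With the counts of *Aph1b* and *Aph1c* added together, the log2 fold change was 0.05 (SE 0.13, adjusted p = 0.931 by edgeR). The adjusted p of *Aph1c* alone was 0.0522 without GFPiSMC mouse 1 and 0.0832 with counts summed per animal. The subunit genes *Ncstn*, *Aph1a*, and *Psenen* and the sheddase genes *Adam10* and *Adam17* were not called, with log2 fold changes from −0.21 to 0.59.

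*Bhlhe41*, a repressor gene related to the Hes family, rose from 31.8 to 47.1 CPM (0.57, SE 0.15, adjusted p = 0.0406), with 1 GFPiSMC library at 41.2 CPM inside the Tgfbr1/2iSMCKO range of 38.0 to 55.6 CPM. The call was lost in 10 of 17 alternative settings, with an adjusted p of 0.209 without Tgfbr1/2iSMCKO mouse 1.

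*Mfap5*, which encodes a microfibril protein reported to bind Jagged1 and Notch1, fell most of the 62 genes. It was at 1215, 1026, and 1228 CPM in GFPiSMC ascending/arch and at 774, 504, and 782 CPM in GFPiSMC descending libraries. In Tgfbr1/2iSMCKO SMCs it was at 458, 368, and 335 CPM in the ascending/arch and at 401, 365, and 345 CPM in the descending segment. All Tgfbr1/2iSMCKO libraries lay below all GFPiSMC libraries, as 2.89% of all genes did, and the levels of the Tgfbr1/2iSMCKO segments overlapped while those of GFPiSMC did not. The log2 fold change was −1.24 (SE 0.16, adjusted p = 0.000336 by edgeR), and it passed in all 17 alternative settings. It was −1.58 (SE 0.18) in the ascending/arch and −0.89 (SE 0.18) in the descending segment, a difference of 0.69 (SE 0.26) with an unadjusted p of 0.0193 and an adjusted p of 1.00.

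**Figure D5:**
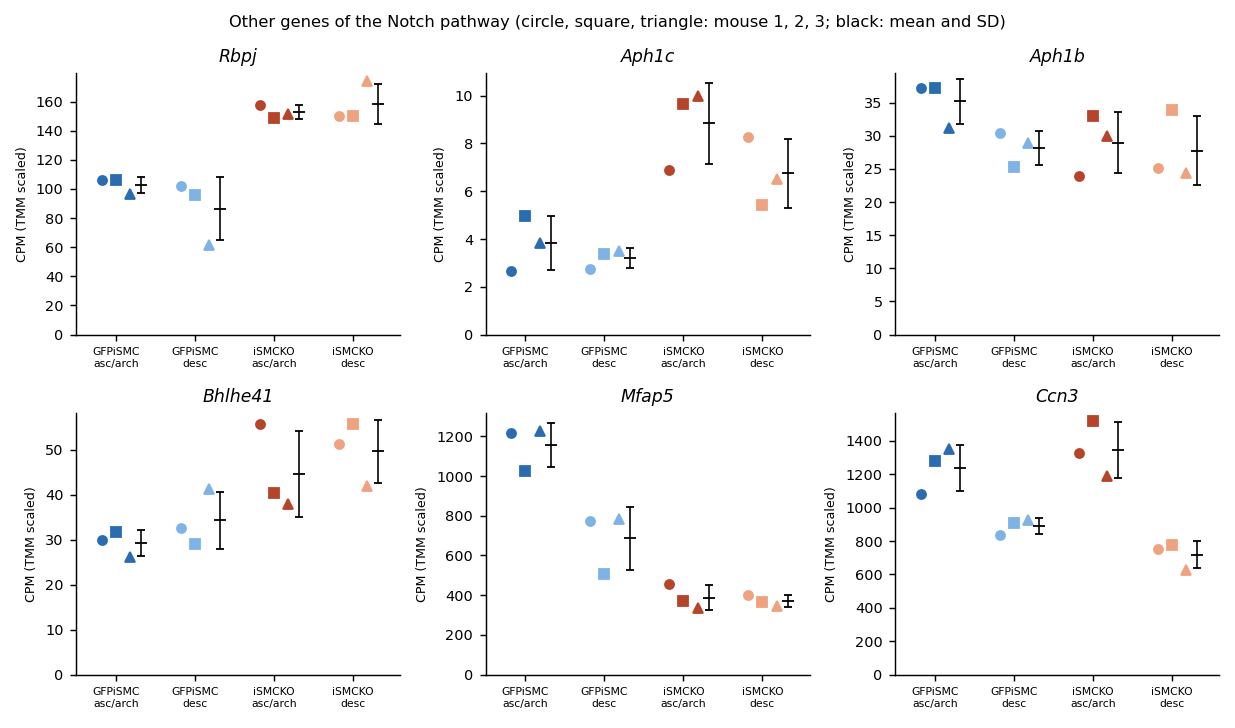
CPM of 6 other genes of the pathway or linked to it in each library, from 0 on linear axes. Circles, squares, and triangles are mice 1, 2, and 3, and black bars are the mean and SD of 3 libraries. *Rbpj* is above 148 CPM in each Tgfbr1/2iSMCKO library and below 107 CPM in each GFPiSMC library, and *Mfap5* shows the reverse order of genotypes.

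Lists without a call between genotypes were the other ligands (4 of 6 tested), the ligand ubiquitin ligases (4), the receptor glycosylation and cleavage genes (6), the corepressors (6), the turnover and feedback genes (10), and targets reported in other studies (5). Within these lists *Neurl1a*, *Myc*, and *Efnb2* had unadjusted p-values under 0.05 (log2 fold changes −1.06, 0.83, and −0.32, adjusted p = 0.155, 0.120, and 0.186), as did the coactivator gene *Maml3* beside *Rbpj* (0.86, adjusted p = 0.134). Of all 62 pathway genes tested, 10 had an unadjusted p under 0.05 by edgeR, a share close to the 16.1% of all genes. Among extracellular Notch-binding proteins, *Thbs2* was at −0.66 (adjusted p = 0.103) and *Mfap2* at −0.44 (adjusted p = 0.187). The 5 genes of that list had 4 negative fold changes and 1 positive, from −1.24 to 0.79 on the log2 scale. The Delta-like and related ligands were scarce, since the 6 genes of their list summed to at most 5.18 CPM in any library. *Nrarp*, a feedback gene of the pathway, was at 0.478 and 0.554 CPM (0.22, SE 0.40), and *Hes5* was not tested.

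Between segments, 2 of the 62 genes were called, both lower in the descending segment, against 0.578% of all genes. Both came from the list of extracellular proteins. *Mfap2*, a further microfibril gene, was at 41.5 to 73.4 CPM in the ascending/arch and 13.5 to 28.4 CPM in the descending libraries, a log2 difference of −1.54 (SE 0.17, adjusted p = 0.00057 by edgeR). *Ccn3*, which encodes a matricellular protein reported to bind Notch1, was at 1082 to 1521 and 627 to 929 CPM (−0.69, SE 0.11, adjusted p = 0.0078), and its adjusted p was 0.0679 without Tgfbr1/2iSMCKO mouse 1. For both genes the segments did not overlap. Fibroblast markers moved with the segment too: 2 of 6 tested were lower in the descending segment, *Lum* (−4.30, SE 0.44) and *Dcn* (−2.30, SE 0.48), and the 7 summed to 69.7 to 219 CPM in the ascending/arch and 14.1 to 38.3 CPM in the descending libraries, of which *Clec3b*, *Ly6a*, *Pi16*, or *Dpt* was at 0 in some. Their part in *Mfap2* and *Ccn3* was not tested.

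Endothelial cells use *Notch1*, *Notch4*, *Jag1*, *Jag2*, *Hey1*, and *Dll4* as well. Over both segments, 2 of 10 endothelial markers were called higher in Tgfbr1/2iSMCKO libraries, against 1.80% of all genes. These were *Cdh5* (0.169 and 1.26 CPM, 2.97 on the log2 scale, SE 0.70, adjusted p = 0.0250, lost in 6 of 16 alternative settings) and *Esam* (0.84, SE 0.22, adjusted p = 0.0398). Of the 10, 8 had a positive fold change. *Pecam1* and *Esam* were at 79.3 and 26.1 CPM in GFPiSMC SMCs. All 10 together summed to 85.3 to 113.5 CPM in GFPiSMC and 90.9 to 138.5 CPM in Tgfbr1/2iSMCKO ascending/arch libraries. In the descending segment these sums were 114.3 to 124.4 and 126.7 to 168 CPM. Without *Pecam1* and *Esam*, the list summed to 5.70 to 11.7 CPM in GFPiSMC and 6.38 to 19.9 CPM in Tgfbr1/2iSMCKO ascending/arch libraries. In the descending segment it summed to 2.49 to 5.705 CPM in GFPiSMC and 10.35 to 13.6 CPM in Tgfbr1/2iSMCKO libraries, without overlap. *Cdh5* was at 0 in 2 GFPiSMC descending libraries, and *Emcn* or *Robo4* was at 0 in a library of each ascending/arch group. In the ascending/arch alone, 5 of the 10 were positive, 5 negative, and 0 called, against 1.41% of all genes. In the descending segment alone, 8 were positive, 2 negative, and 0 called, against 1.72% of all genes. The part of endothelial transcripts in the values of *Notch1*, *Jag1*, and *Hey1* was not tested. In bulk libraries, more cells of a type and more RNA per cell cannot be told apart.

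Over the 12 libraries, the members did not move as 1 group. Each member averaging 50 counts or more was set against 12676 genes by Pearson correlation of log2 CPM, as a description of libraries that share mice, depth, and GC tilt. The nearest genes were *Cnnm4* and *Actn1* for *Heyl* (r = 0.968 and 0.961), *Set* and *Npm1* for *Notch2* (0.955 and 0.946), *Chst10* and *Pex11a* for *Notch1* (0.939 and 0.877), and *Ano1* and *Khdc4* for *Hey1* (0.925 and 0.904). For *Hey2* they were *Vmp1* and *Taf7* (0.924 and 0.885), for *Jag1* *Nsmce1* and *Mpped2* (0.902 and 0.875), for *Notch3* the pseudogene *Gm36298* and *Mutyh* (0.863 and 0.840), and for *Hes1* *Gmip* and *Gm37254* (0.815 and 0.809). No member was among the 2 nearest genes of another member, which says little, since only 2 of 12676 genes were kept for each. Between members r ran from −0.57 (*Jag1* with *Heyl*) to 0.57 (*Notch2* with *Hey2*).

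All 10 genes are single protein-coding loci in GENCODE M21 on GRCm38. *Notch2* (98013527 to 98150361) and *Hey1* (8663359 to 8667256) lie on chromosome 3, *Notch1* (26457903 to 26516663) and *Jag1* (137081456 to 137116644) on chromosome 2, and *Notch3* (32120820 to 32166852) and *Notch4* (34564268 to 34588503) on chromosome 17. *Heyl* lies on chromosome 4 (123233556 to 123249875), *Hey2* on 10 (30832359 to 30842801), *Jag2* on 12 (112907819 to 112929776), and *Hes1* on 16 (30064384 to 30067796). Annotated transcripts overlap *Notch1* on the opposite strand with up to 153 counts, beside 134 to 362 counts of *Notch1* itself, and strand was not stated to be used in counting, so reads of the overlap cannot be assigned to either with certainty. Overlapping genes of *Notch2*, *Notch3*, *Notch4*, and *Jag2* had at most 45, 24, 4, and 1 counts.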

How the data were processed

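Libraries were made from sorted GFP+ SMCs with a low-input kit, and the authors trimmed reads with Trim Galore, aligned them with HISAT2 to GRCm38, quantified GENCODE M15 genes with StringTie, and compared groups with DESeq2. The deposited values are whole-number counts per gene without normalization. How coverage became counts is not given in the sources used here, and counts of 2 (32279) outnumber counts of 1 (22574). Symbols, coordinates, and exon lengths came from GENCODE M21 (52489 of 52636 genes had a symbol).

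Counts were tested with edgeR 4.0.16 in R 4.3.3 (TMM, filterByExpr on the 4 groups, quasi-likelihood test, Benjamini-Hochberg adjustment over 22320 genes). All 12 libraries entered each of 7 comparisons, with segment or genotype as covariate or as 4 group means. SE was taken as the absolute log2 effect divided by √F, and intervals are 95% by the moderated degrees of freedom. The common BCV was 0.442. p-values measure the spread between libraries, and the segments of 1 mouse are not independent in the genotype comparison. Alternatives were DESeq2 1.42.0, limma 3.58.1 (voom, mouse as random effect), other scalings and filters, no segment term, counts summed per animal, segments or genotypes fitted alone, blocks, and each animal left out. A GC offset and halved counts were added after the data were seen. An exact two-sided permutation test of 3 mice against 3 cannot go below p = 0.1, so none is given. The steps were run on simulated counts with known changes. These counts were drawn independently for each library, without a link between the segments of 1 mouse and without a GC tilt, so that run says nothing on either.

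Libraries with the same genotype and number in their titles were read as the segments of 1 mouse, although no label names an animal. After removal of group means over 9210 genes, their correlations were 0.187, −0.242, and 0.0240 in GFPiSMC and 0.0612, 0.377, and 0.661 in Tgfbr1/2iSMCKO mice. All members are counted in each comparison and named with values between genotypes over both segments. Members named in the other comparisons were picked by size of effect, width of interval, or lack of overlap. Values are also given for listed genes past the threshold over both segments or both genotypes, and for genes nearest to a member. *Neurl1a*, *Myc*, *Efnb2*, *Maml3*, *Thbs2*, *Nrarp*, and *Hes5* were named after their values were seen. The members and lists were chosen with earlier results of these data known. Promoter sequences came from RefSeq (GRCm38.p6), where 7 of 10 members matched. Labels name no batch. Figures used matplotlib 3.10.9 in Python 3.11.15.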

Additional observations from a re-analysis of the deposited data

How the results depend on the processing

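No alternative called any of the 10 members in any of the 7 comparisons. The replicate block, by replicate number between genotypes or by animal between segments, left 0 members called in each. Replicate numbers are shared by the genotypes only as numbers (correlations of −0.527 to 0.216), and that block gave 2 higher and 1 lower pathway genes. Higher pathway genes between genotypes numbered 5 by DESeq2 and 0 with counts summed per animal, and lower ones 3 by DESeq2 and 2 with a mean of at least 50 counts. Leaving out each animal gave 1 (without GFPiSMC mouse 1) to 3 higher and 1 to 2 (without Tgfbr1/2iSMCKO mouse 3) lower between genotypes, and 1 (without Tgfbr1/2iSMCKO mouse 1) to 2 lower between segments. The cause was not tested. Scaling by library size alone shifts the median log2 fold change of all genes from 0.04 to 0.16, and with it *Notch2* (0.06), *Jag2* (0.01), and *Hes1* (0.08) turned positive. *Notch4* and *Hey2* turned negative and *Hes1* positive with limma-voom (−0.01, −0.03, and 0.22) and with the block for replicate number (−0.0072, −0.02, and 0.04). Between segments, *Notch2*, *Jag2*, and *Heyl* turned negative with the GC offset (−0.02, −0.09, and −0.02), and *Heyl* with the animal block (−0.15). *Notch1*, *Notch3*, *Jag1*, *Hey1*, and *Heyl* kept their sign between genotypes in each of the 17 settings. Leaving out single animals, the genotype effect in log2 units ran from −0.16 to 0.09 for *Notch2*, −0.47 to 0.37 for *Notch4*, −0.32 to 0.29 for *Jag2*, −0.21 to 0.14 for *Hey2*, −0.46 to 0.69 for *Hes1*, and −0.0021 to 0.20 for *Tgfbr1*. The segment effect ran from −0.07 to 0.09 for *Notch2*, −0.14 to 0.18 for *Jag2*, −0.15 to 0.39 for *Heyl*, and −0.87 to 0.06 for *Hes1*. Counts of 12 to 56 limit *Notch4* and *Jag2*.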
